A study of Mus musculus with 6 samples.

Results

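Mitochondrial ribosomal protein genes encode the protein part of the ribosome inside mitochondria, and 71 of the 22180 genes read on these arrays belonged to the set. Members were all genes whose probe sets (groups of array probes read as 1 value) carried a single symbol beginning with Mrpl or Mrps and a digit. They comprised 43 genes named for the large subunit (Mrpl) and 28 named for the small subunit (Mrps), read by 80 probe sets. A further 7 genes with such names (Mrpl30, Mrpl33, Mrpl41, Mrpl43, Mrpl44, Mrpl53 and Mrps6) were read only by probe sets that carried several symbols and were left out.

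The study profiled RNA of pancreatic islets from C57BL/6J mice aged 5 weeks and asked what the loss of Sel1L in β cells changes. Sel1L is the adaptor of the HRD1 ubiquitin ligase, which clears misfolded proteins from the endoplasmic reticulum. The 3 arrays labelled wildtype held RNA of control littermates with floxed Sel1L alleles (Sel1L f/f), and the 3 Sel1L-deficient arrays held RNA of mice that also carried Cre inserted at the Ins1 gene, which removes Sel1L in β cells. Cre was thus present only in the deficient group, so its presence at Ins1 and the loss of Sel1L cannot be told apart. Both groups were kept on regular chow, and all islets recovered in culture overnight before RNA extraction. The labels do not say how many animals each array pooled.

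The mitochondrial ribosome is built from ribosomal RNAs of the mitochondrial genome and from proteins that the nucleus encodes, the cytosol makes and the mitochondrion imports. Its small subunit reads the messenger RNA and its large subunit joins the amino acids. Its products are core subunits of the respiratory chain and of ATP synthase, which in β cells couple glucose oxidation to insulin secretion. Many of its proteins have bacterial counterparts, while others are found only in mitochondria.

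Values are log2 summaries per probe set made with RMA, which subtracts background, brings the arrays to a common scale and merges the probes of a set. Each gene was read by its brightest probe set, and differences are Sel1L-deficient minus wildtype on the log2 scale. Sel1l itself read 8.46, 8.56 and 8.76 on the wildtype arrays and 7.73, 7.65 and 7.68 on the deficient arrays, in the direction of the labels (difference -0.90 ± 0.11 SE, limma adjusted p = 0.0312). Every sample is labelled female. Xist was nevertheless low (2.93 and 3.08, against 9.93 to 10.4) and Y-linked genes were high on replicate 3 of each genotype. The islet hormone genes Ins2, Iapp, Gcg, Sst and Ppy and the granule gene Chga had mean values of 10.9 to 12.6, near the top of the scale. The insulin gene Ins2 read 11.1, 11.0 and 11.2 in wildtype and 10.5, 10.8 and 10.5 in deficient islets, without overlap (difference -0.50 ± 0.13 SE, limma adjusted p = 0.279). Iapp did not overlap either, with a difference of -0.09. Among markers of other cells, the mean log2 value of 7 endothelial markers was 6.74 to 7.18 in wildtype and 7.35 to 7.51 in deficient islets, and that of 7 mesenchymal markers 4.59 to 5.41 and 5.43 to 5.64. All 7 of each list were higher in deficient islets, and 0 passed the test. The mesenchymal mean of 4.59 was that of wildtype replicate 3, against 5.41 and 5.20 on replicates 1 and 2. The mean of 5 acinar markers was 7.73 to 9.70 and 6.97 to 9.57, with all 5 lower in deficient islets. For 4 duct markers it was 4.02 to 4.25 and 3.71 to 4.24, with 2 lower. For 6 leukocyte markers it was 3.49 to 3.80 and 3.39 to 3.70, with 4 lower. In these lists too 0 genes passed. No marker was listed at 0, and the part of these cells in the results was not tested. In bulk islets, fewer cells of a type and less RNA per cell cannot be told apart.

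No member passed the threshold of an adjusted p under 0.05, by limma with Benjamini-Hochberg adjustment over all 22180 genes. Of the 71 members 0 rose and 0 fell, against 0.0902% and 0.153% of all genes, 0.243% together, and the smallest adjusted p was 0.312, for Mrps18b. At an unadjusted p under 0.05 there were 6 members, 5 lower and 1 higher, while 9.48% of all genes were at that level, 5.04% lower and 4.45% higher. The same fit with a trended, robust variance also called 0 members. In 7 members the 3 values of one genotype lay wholly above those of the other, where 15.1% of all genes did so. The deficient values were the lower ones in 5 members, against 7.84% of all genes, and the higher ones in 2, against 7.22%. In total 8.45% of the members were at the unadjusted level and 9.86% did not overlap, both below the shares of all genes. With 71 members such gaps rest on few genes, and no result is read from them. The members were also brighter than all genes (median of the mean values 5.24 against 3.52), and the shares were not matched for this.

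The differences were small in both directions. They ran from -0.50 for Mrpl20 to 0.30 for Mrpl28, with a median of -0.02, beside a median of 0.00 over all genes. For 52 of the 71 members the difference was smaller than 0.2 either way, a share of 73.2% against 74.3% of all genes. The largest, -0.495 for Mrpl20, lay just under 0.5 (a 1.41-fold change), a size that 2.80% of all genes exceeded. The arrays set limits on what could have been missed. The unadjusted 95% intervals had a median half-width of 0.31. They lay wholly inside a 2-fold change for 70 of 71 members, beside 21666 of 22180 genes. Inside a 1.41-fold change they lay for 44 members, 62.0% against 66.2% of all genes. The exception at 2-fold was Mrps16, whose interval ran from -1.01 to 0.08.

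**Figure D1:**
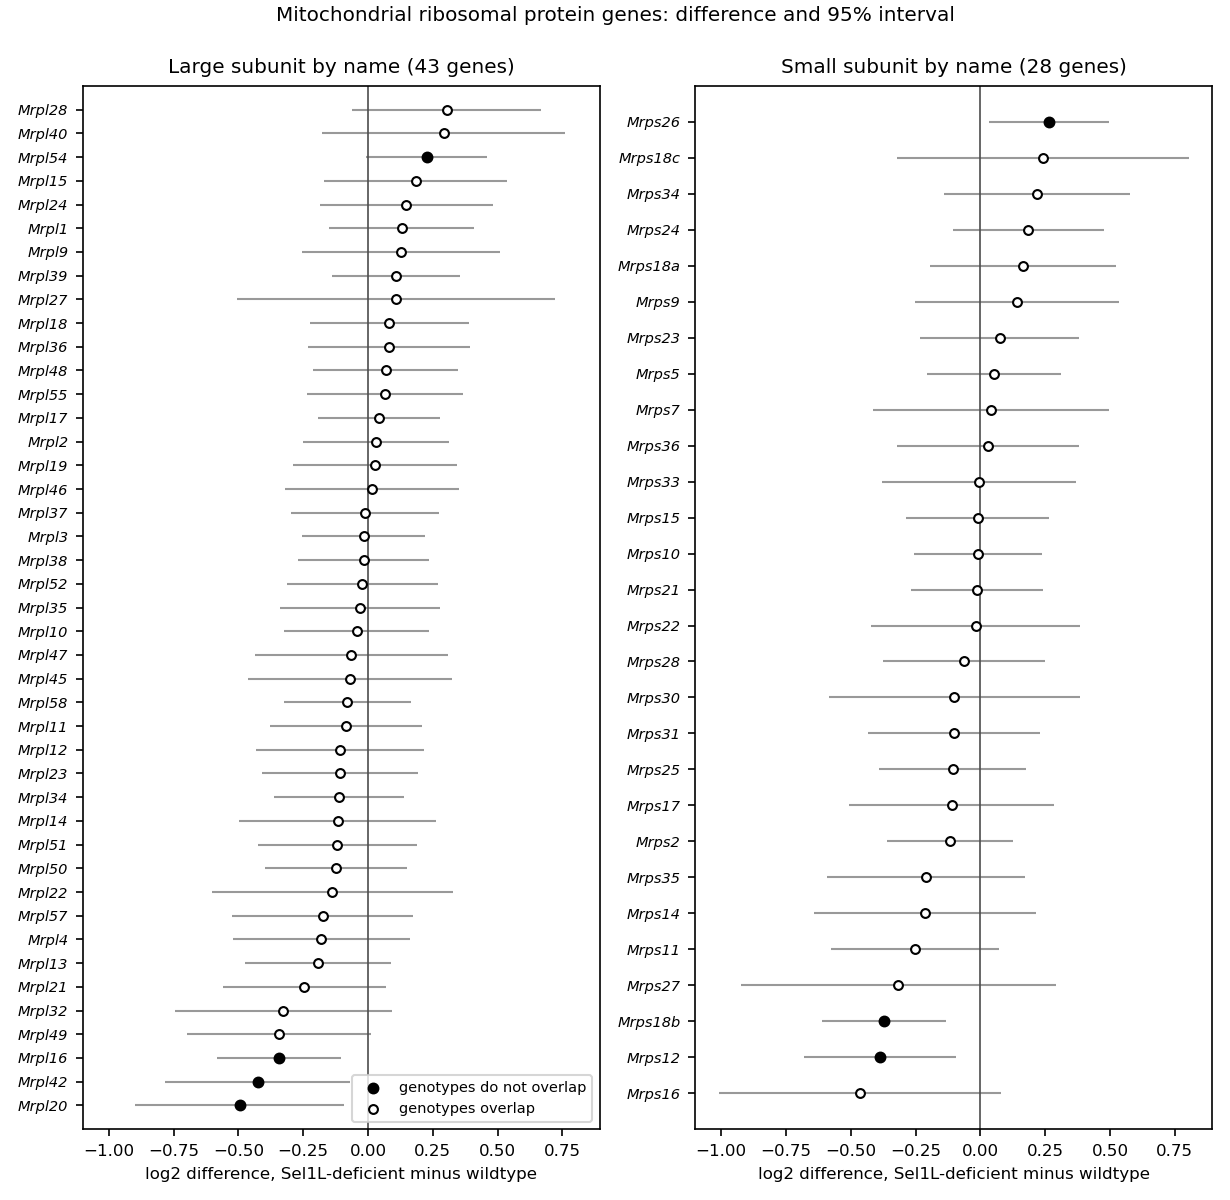
Log2 difference (Sel1L-deficient minus wildtype, horizontal axis) with its unadjusted 95% interval from limma for each of the 43 genes named for the large subunit and the 28 named for the small subunit, sorted by difference. Filled points mark the 7 members whose genotypes do not overlap, and all points lie between -0.50 and 0.30.

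Genes of the large and small subunit had similar medians. The 43 large-subunit genes had a median difference of -0.03 and 26 were lower, a share of 60.5%. The 28 small-subunit genes had a median of -0.02 and 18 were lower, 64.3%. Over all genes 49.9% were lower. On each array the mean of the large-subunit values minus the mean of the small-subunit values was 0.04, 0.07 and 0.09 in wildtype and 0.08, 0.08 and 0.06 in deficient islets. The group means were 0.07 ± 0.03 and 0.07 ± 0.01 (SD, n = 3 each), and the ranges overlapped. Only its change between arrays is read here, since levels of different probe sets are not comparable.

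Names do not match the position in every case. Mrps30 and Mrps18a carry small-subunit names, although their proteins sit in the large subunit. The product of Mrps36 is now known as a part of the 2-oxoglutarate dehydrogenase complex. With the first 2 moved and Mrps36 left out, the medians were -0.03 for 45 large-subunit genes and -0.02 for 25 small-subunit genes. Mrps30 read 6.01, 5.44 and 5.29 in wildtype and 5.38, 5.26 and 5.80 in deficient islets, a difference of -0.10 with a 95% interval of -0.59 to 0.39. Without wildtype replicate 1 it differed by 0.12, and without Sel1L-deficient replicate 2 by 0.01. Mrps36 differed by 0.03 with an interval of -0.32 to 0.38, but leaving out replicate 3 turned this to -0.05 (wildtype) or -0.12 (Sel1L-deficient). Its mean of 3.10 lay within the range of the array medians, 3.08 to 3.16. It may thus not stand above background, for which no measure was available. The same holds for Mrps18c, at 3.16, and Mrpl27, at 2.54, lay below every array median. The other 68 members had means above the highest array median.

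In their mean value over the members, the wildtype arrays differed among themselves more than the genotypes did. This mean over the 71 members was 5.32, 5.09 and 5.27 on wildtype replicates 1 to 3 and 5.18 on each of the 3 deficient arrays. Wildtype replicate 2 thus lay below every deficient array, and the other wildtype arrays above them. It gave the lowest of the 3 wildtype values in 49 of 71 members, 69.0%, against 35.6% of all genes. Wildtype replicate 1 gave the highest in 39, 54.9%, against 35.9%. Among deficient arrays no replicate stood out, with 25, 21 and 25 members lowest on replicates 1, 2 and 3. On the same wildtype arrays the mean of 59 cytosolic ribosomal protein genes was 6.80, 6.63 and 6.73, that of the acinar markers 8.63, 7.73 and 9.70, and that of all genes 4.08, 4.07 and 4.08. Replicate 2 was lowest in each, and the part of these differences in the members' values was not tested.

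The small downward lean of the members depended on single arrays. Of the 71 members 44 were lower in deficient islets. Without wildtype replicate 1 the count was 29 and the median 0.02. Without Sel1L-deficient replicate 1 it was 35, with a median of 0.00. Without wildtype replicate 2 it was 51, with a median of -0.09. On the 4 arrays with high Xist 42 were lower, with a median of -0.04.

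**Figure D2:**
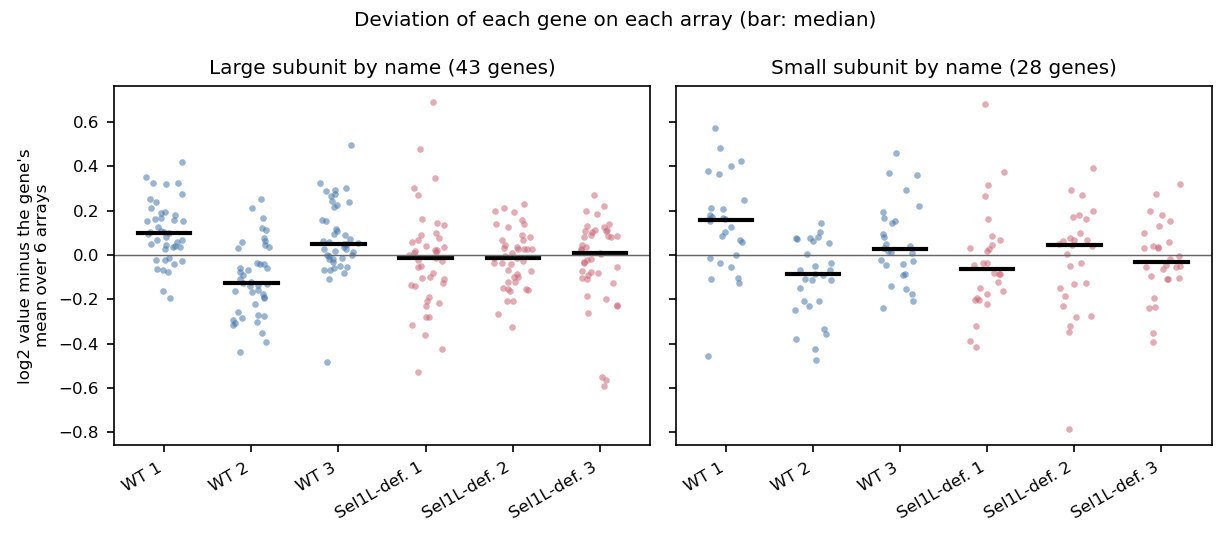
Log2 value of each member minus its own mean over the 6 arrays (vertical axis) by array, for the 43 large-subunit and 28 small-subunit genes; points are genes, bars are medians, and WT stands for wildtype. In both subunits the medians lie highest on wildtype replicate 1 (0.10 and 0.16) and lowest on wildtype replicate 2 (-0.13 and -0.09), with the deficient arrays between them.

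The 43 genes grouped as having a counterpart in bacteria had a median difference of -0.03, and 26 were lower. Mrpl20 read 4.24, 4.10 and 4.54 in wildtype and 3.99, 3.95 and 3.46 in deficient islets. All 3 deficient values lay below all wildtype values, and the difference was -0.50 ± 0.18 (SE; limma adjusted p = 0.412). It was -0.32 without Sel1L-deficient replicate 3 and -0.20 on the 4 arrays with high Xist. Mrpl16, whose product lies close to the site where peptide bonds form, read 5.47, 5.47 and 5.35 against 5.07, 5.19 and 5.00. It did not overlap either, with a difference of -0.34 ± 0.10 (SE; limma adjusted p = 0.347). Mrps12, which encodes the protein at the decoding site of the small subunit, read 4.20, 4.08 and 4.39 against 3.84, 3.996 and 3.68, again without overlap (difference -0.39 ± 0.13 SE, limma adjusted p = 0.387; -0.22 on the arrays with high Xist).

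Mrps16 read 5.12, 4.21 and 5.00 in wildtype and 4.13, 4.22 and 4.58 in deficient islets. Wildtype replicate 2 lay among the deficient values, and the difference of -0.46 was -0.75 without that array and -0.30 when wildtype replicate 1 was left out. Its second, dimmer probe set also differed by -0.45, with wildtype replicate 2 again the lowest wildtype value (3.07). Mrpl32, whose precursor must be cut by a mitochondrial protease before the protein can join the ribosome, differed by -0.33 and overlapped, with 4.16, 4.48 and 4.53 against 4.32, 4.19 and 3.68. The difference was -0.13 without Sel1L-deficient replicate 3, the lowest array, and -0.06 on the arrays with high Xist.

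At the upper end Mrpl28 read 3.66, 3.43 and 3.67 in wildtype and 4.22, 3.64 and 3.82 in deficient islets. Its difference was 0.30 with a 95% interval of -0.06 to 0.67, and Sel1L-deficient replicate 2 lay inside the wildtype range. The difference was 0.14 without Sel1L-deficient replicate 1. Mrpl15 and Mrpl24, the other 2 large-subunit genes among the 5 highest beside Mrpl40 and Mrpl54, differed by 0.18 and 0.15 and overlapped. Without wildtype replicate 2 they differed by 0.05 and 0.04. The 3 genes of the factor-binding stalk, Mrpl10, Mrpl11 and Mrpl12, which recruit translation factors, differed by -0.04, -0.08 and -0.11. Mrpl11 differed by 0.02 without wildtype replicate 1. Mrpl12 differed by 0.01 without Sel1L-deficient replicate 1, and Mrpl10 by 0.02 without wildtype replicate 1, or by 0.05 when Sel1L-deficient replicate 2 was left out. The 4 genes of the tunnel exit, where new peptides leave, lay between -0.14 and 0.15. They include Mrpl45, which ties the ribosome to the inner membrane, at -0.07, or at 0.08 without wildtype replicate 1 and 0.03 when Sel1L-deficient replicate 3 was left out.

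The 27 genes grouped as found only in mitochondrial ribosomes had a median of -0.02, with 18 lower. Mrps18a and Mrps18b were counted in this group, although they descend from a bacterial gene, as described below. Mrpl42 read 5.43, 5.24 and 5.44 in wildtype and 4.63, 5.01 and 5.20 in deficient islets, with no overlap and a difference of -0.43 ± 0.16 (SE; limma adjusted p = 0.431), or -0.27 without Sel1L-deficient replicate 1. Mrpl49 read 6.10, 5.51 and 5.94 against 5.57, 5.47 and 5.48, so wildtype replicate 2 overlapped, and differed by -0.34, or by -0.22 without wildtype replicate 1. Mrps27, an RNA-binding protein of the small subunit, differed by -0.32 with 4.47, 4.20 and 3.96 against 4.37, 3.27 and 4.05. Sel1L-deficient replicate 2 gave the lowest value, and without that array the difference was -0.0033.

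In the other direction, Mrps26 was the 1 member higher at an unadjusted p under 0.05 on the brightest probe sets. It read 5.61, 5.51 and 5.63 in wildtype and 5.76, 5.89 and 5.90 in deficient islets, without overlap, a difference of 0.27 ± 0.10 (SE; limma adjusted p = 0.454). Mrpl54 read 6.52, 6.63 and 6.64 against 6.75, 6.90 and 6.82 and did not overlap either, with a difference of 0.23 and a 95% interval of -0.0063 to 0.458. Mrpl40, a protein of the central protuberance, a structure at the top of the large subunit, differed by 0.29 and overlapped (4.84, 4.24 and 4.03 against 4.86, 4.58 and 4.54). Its difference was 0.12 without wildtype replicate 3 and 0.53 when wildtype replicate 1 was left out. The 6 members of that structure lay between -0.08 for Mrpl58, a hydrolase that frees stalled peptides, and 0.29. Mrps34 differed by 0.22, with wildtype replicate 2 at 4.42 as its lowest value, and by 0.06 without that array. Mrps24, which belongs to the group with a bacterial counterpart, differed by 0.19 and overlapped, and by 0.08 without Sel1L-deficient replicate 2.

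**Figure D3:**
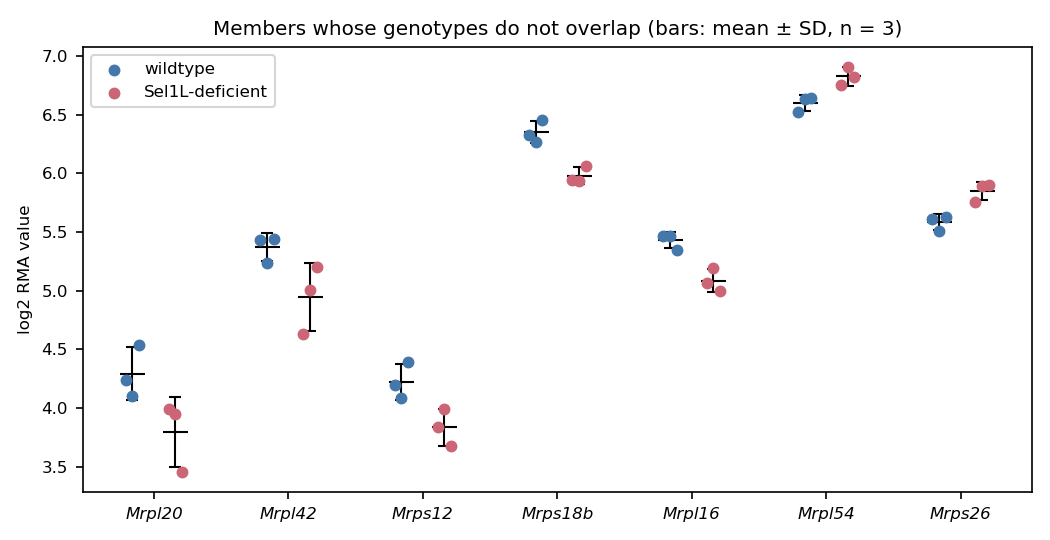
Log2 RMA values (vertical axis) of the 7 members whose genotypes do not overlap, 3 arrays each, with mean and SD. In Mrpl20, Mrpl42, Mrps12, Mrps18b and Mrpl16 all deficient values lie below the wildtype values, in Mrpl54 and Mrps26 above them; 15.1% of all genes show such a separation.

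Mammals carry 3 descendants of 1 bacterial small-subunit gene, and none of them passed the test. Mrps18b, placed in the small subunit, read 6.33, 6.27 and 6.46 in wildtype and 5.94, 5.93 and 6.06 in deficient islets. The 3 deficient values lay below all wildtype values, with a difference of -0.37 ± 0.10 (SE; limma adjusted p = 0.312), a 1.29-fold lower level. On its other probe set the difference was -0.14, and the genotypes did not overlap there either, with the closest values at 5.91 in wildtype and 5.90 in deficient islets. Mrps18a, of the large subunit, read 5.76, 5.20 and 5.54 against 5.50, 5.78 and 5.71, a difference of 0.16 with a 95% interval of -0.19 to 0.52, and of 0.02 without wildtype replicate 2. Mrps18c, which takes the place of the bacterial protein, differed by 0.24 (95% interval -0.32 to 0.80). Leaving out Sel1L-deficient replicate 1 turned this to -0.04, and its other probe set gave -0.06.

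A second probe set was present for 9 members, and its difference pointed the other way in 4 of them: Mrpl10, Mrpl12, Mrps17 and Mrps18c. The dimmer sets of Mrpl12 (mean 2.29) and Mrps18c (mean 2.63) lay below every array median, so their direction is that of sets that may not stand above background. Mrpl10 differed by -0.04 on the brighter probe set (mean 7.33) and by 0.46 on the dimmer one (mean 3.72), where all deficient values lay above the wildtype values. Mrps17 differed by -0.11 and 0.38, and here too the dimmer set did not overlap. Mrps5 differed by 0.05 on the brighter set and by 0.59 on the dimmer, which did not overlap and whose mean of 2.57 lay below the array medians. Mrpl36 differed by 0.08 (-0.06 without wildtype replicate 2) and 0.35, where the dimmer set did not overlap, and Mrpl47 by -0.06 and -0.22. On its brighter set Mrpl47 differed by 0.04 without wildtype replicate 3, or by 0.02 when Sel1L-deficient replicate 1 was left out. The dimmer sets of Mrpl10, Mrps17, Mrps5 and Mrpl36 were higher, at limma unadjusted p of 0.012, 0.015, 0.015 and 0.029. That of Mrps18b, which did not overlap either, was lower. How often second probe sets do not overlap over all genes was not counted, so no result is read from these. Which transcripts each probe set reads was not analysed here.

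The promoters of the members held some motifs more often than those of other genes, a description for which no test was made. Of the 71 members 62 had a start site in the RefSeq table (GRCm38.p6), and 250 bases before to 50 after it were searched on both strands. CCGGAAG, a core bound by ETS factors such as GABPA, was present in 23 of 62 members, 37.1%, against 12.7% of 16990 genes with a promoter and an array value. AAGATGG, part of the YY1 motif, was present in 13, 21.0%, against 7.32%. The NRF1 motif, in its exact palindromic form, was in 3, 4.84%, against 1.49%. GGGCGG of SP1 (51.6% against 49.5%) and the E box CACGTG (8.06% against 9.19%) were about as frequent as elsewhere. CCGGAAG and AAGATGG can share bases, but in 0 members did they overlap in this way.

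GABPA, NRF1 and YY1 are known regulators of nuclear genes for mitochondria. A match to letters is a description and not a bound site. Members with CCGGAAG had a median difference of -0.02, with 15 of 23 lower, and those without it -0.04, with 24 of 39 lower. Over all genes with CCGGAAG in the promoter, members or not, the median was -0.04. CCGGAAG was found in 11 of 25 small-subunit promoters and 12 of 37 large-subunit promoters.

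The following stretches end just before the start site of the 4 genes with a RefSeq promoter that are shown because their genotypes did not overlap: the 3 lower ones with the smallest unadjusted p and the higher one. Each holds 250 bases, with matches to any of the 5 motifs on either strand in capitals. They lie at chr17:35916441-35916690 (Mrps18b, minus strand), chr19:11770165-11770414 (Mrpl16, plus strand), chr7:28741822-28742071 (Mrps12, minus strand) and chr2:130563507-130563756 (Mrps26, plus strand).
Mrps18b: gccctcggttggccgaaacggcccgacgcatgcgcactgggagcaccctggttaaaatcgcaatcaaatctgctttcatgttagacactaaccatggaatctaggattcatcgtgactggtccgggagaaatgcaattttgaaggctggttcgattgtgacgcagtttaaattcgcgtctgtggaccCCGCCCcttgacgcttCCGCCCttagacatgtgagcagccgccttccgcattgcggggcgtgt
Mrpl16: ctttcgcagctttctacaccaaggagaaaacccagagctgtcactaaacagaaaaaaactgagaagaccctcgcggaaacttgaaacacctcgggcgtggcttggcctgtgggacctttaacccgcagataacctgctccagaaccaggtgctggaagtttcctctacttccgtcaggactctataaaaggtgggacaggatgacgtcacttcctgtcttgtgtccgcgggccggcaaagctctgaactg
Mrps12: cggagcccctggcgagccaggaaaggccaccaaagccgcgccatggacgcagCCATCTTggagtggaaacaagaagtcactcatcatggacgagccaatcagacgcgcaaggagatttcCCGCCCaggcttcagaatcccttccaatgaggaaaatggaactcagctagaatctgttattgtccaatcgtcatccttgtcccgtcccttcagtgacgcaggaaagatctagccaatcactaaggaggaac
Mrps26: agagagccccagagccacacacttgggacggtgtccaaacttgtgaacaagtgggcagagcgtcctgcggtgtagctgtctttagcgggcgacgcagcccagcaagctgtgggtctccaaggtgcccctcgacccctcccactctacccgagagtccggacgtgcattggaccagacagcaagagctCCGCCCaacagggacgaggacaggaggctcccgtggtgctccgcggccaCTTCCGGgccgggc

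The stretches differed in the motifs they hold. That of Mrps18b holds the SP1 letters 2 times, Mrps12 holds the YY1 and SP1 letters, Mrps26 the SP1 and ETS letters, and Mrpl16 none of them. Mrps12 and Mrps18b also hold CCGGAAG on one strand after the start, outside the stretch shown.

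Members often stood head to head with a neighbour. In 23 of the 62 members, 37.1%, a gene on the other strand started within 1000 bases upstream, against 13.9% of the genes with a promoter. Among these 23 the member and its neighbour differed in the same direction in 11, counting a pair of members for both, and 0 neighbours passed the threshold. Of these pairs, Mrps12 and Sars2 and Mrps11 and Mrpl46 were singled out after their values were seen. Sars2 encodes the mitochondrial serine tRNA synthetase, and the 2 genes start 147 bases apart. Sars2 read 4.81, 4.69 and 4.57 in wildtype and 4.03, 4.31 and 4.31 in deficient islets, lower on every deficient array, as Mrps12 was (differences -0.47 and -0.39). In the other pair, both genes were members: Mrps11 and Mrpl46 start 42 bases apart and differed by -0.25 and 0.02. The second of these was -0.03 without wildtype replicate 3 and -0.12 when Sel1L-deficient replicate 3 was left out.

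Other parts of mitochondrial translation gave values on the lower side, with 0 genes called in any list. Of 13 translation factors 11 were lower, with a median of -0.20, and of 21 synthetases that charge mitochondrial tRNAs 17 were lower, with a median of -0.12. With 1 array left out these medians ran from -0.22 to -0.16 and from -0.19 (wildtype replicate 2) to -0.07 (wildtype replicate 1). On the 4 arrays with high Xist they were -0.11 and -0.08. Tufm, the elongation factor that brings tRNAs to the ribosome, read 6.32, 5.98 and 6.12 in wildtype and 5.72, 5.88 and 5.40 in deficient islets, without overlap (difference -0.47, limma adjusted p = 0.372). Mtrf1, of the release factor family, differed by -0.29 and Nars2, the asparagine synthetase, by -0.49.

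For 26 genes of ribosome assembly and RNA modification the median was -0.06, with 17 lower. It was -0.02 without wildtype replicate 1 or without Sel1L-deficient replicate 2, and -0.10 when wildtype replicate 2 was left out. Fastkd2, which is needed for assembly of the large subunit, read 4.81, 4.58 and 4.45 against 4.20, 3.90 and 3.72. It did not overlap, and its difference of -0.67 ± 0.15 (SE; limma adjusted p = 0.207) was larger than that of any member. Afg3l2, a subunit of the protease that matures the Mrpl32 product, differed by -0.36. The 14 genes listed under mitochondrial transcription and RNA stability had a median of -0.06, with the helicase gene Supv3l1 at -0.39. Polg, on that list although it encodes a DNA polymerase, was at -0.32. That median was -0.04 without wildtype replicate 1, -0.11 when wildtype replicate 2 and -0.12 when Sel1L-deficient replicate 3 was left out. Dap3, Ptcd3 and Gadd45gip1, ribosomal proteins under other names, differed by -0.14, -0.07 and -0.02, but 1 of these 3 was lower, with a median of 0.0020, without Sel1L-deficient replicate 1. Their median was -0.02 without wildtype replicate 3 or Sel1L-deficient replicate 2.

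The messages that the mitochondrial ribosome reads come from the mitochondrial genome. Of the 13 proteins encoded there 10 had an array value, with a median difference of -0.02, 9 lower and 0 called. On the arrays with high Xist, and without Sel1L-deficient replicate 3, 6 were lower. COX1 read 12.1 on all 6 arrays, and the widest differences were ND3 with -0.27 and ND6 with 0.32 (95% interval -0.28 to 0.93). Their mean values lay at 9.70 to 12.6, near the top of the scale, where differences can be compressed. The 14 nuclear regulators of mitochondrial genes had a median of 0.04 and 0 called. The median was -0.02, with 7 lower, without wildtype replicate 1, and 0.01 when Sel1L-deficient replicate 3 was left out. Myc, which drives ribosome genes in growing cells, differed by 0.44 and overlapped (6.18, 5.92 and 6.44 against 6.72, 6.73 and 6.40). Its relative Mycn, at a mean of 2.53, lay below every array median. The 59 cytosolic ribosomal protein genes had a median of 0.08, with 19 lower and 0 called. That median was 0.03 when wildtype replicate 2 was left out, and 0.04 or 0.13 when this was done for Sel1L-deficient replicate 3 or 1. The 2 with the smallest p were Rpl37a, whose mean of 3.00 lay below every array median, and Rpl11 at -0.43. No test of one list against another was made.

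**Figure D4:**
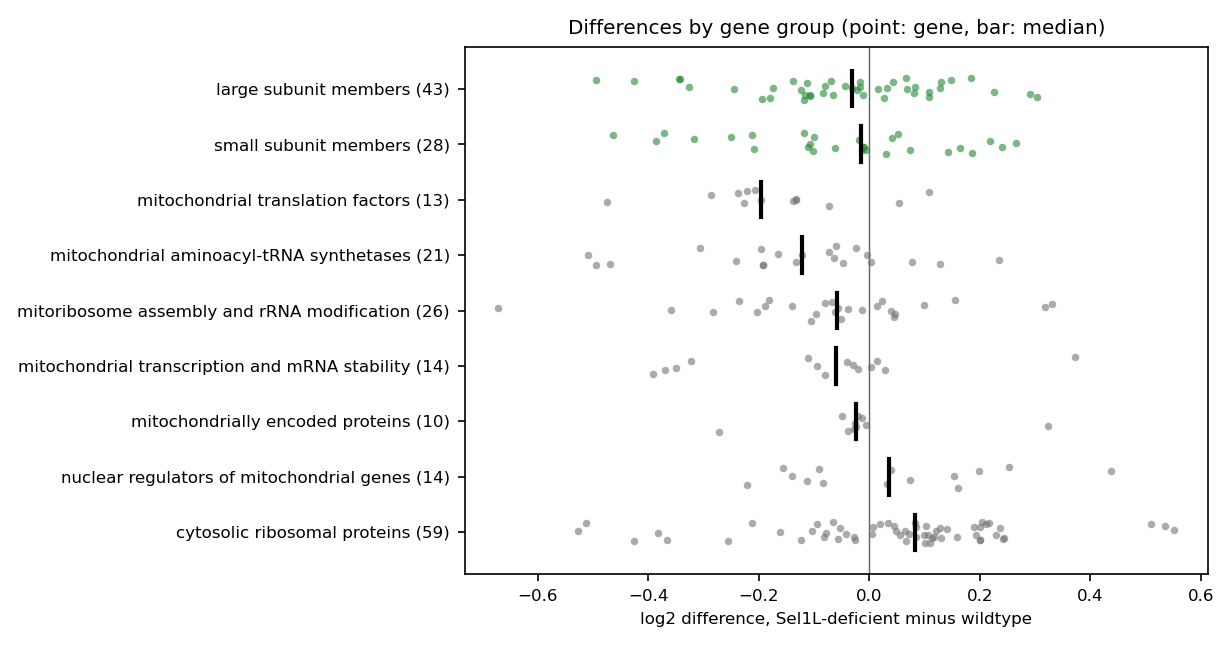
Log2 difference (Sel1L-deficient minus wildtype, horizontal axis) of each gene in the 2 subunits and in 7 related lists, with the number of genes in brackets; points are genes and bars medians. The medians of both subunits (-0.03 and -0.02) lie near 0, with those of translation factors (-0.20) and synthetases (-0.12) lower and that of cytosolic ribosomal proteins higher (0.08, but 0.03 without wildtype replicate 2).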

How the data were processed

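The authors deposited 1 table of log2 values for 41345 probe sets on 6 arrays, made with RMA per the submitters' processing notes. The log base was read from the values, which ran from 0.526 to 13.0, while the RMA version is not given in the sources used here. Genes were named through the platform's annotation, which gave 23521 probe sets a single symbol and 1814 several, and left 16010 unnamed here. RefSeq identifiers changed 0 symbols. The brightest probe set over all arrays stood for a gene, 22180 genes in all.

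Differences were tested with limma 3.58.1 in R 4.3.3 (lmFit, eBayes with the default prior, two-sided, no block), with Benjamini-Hochberg adjustment over all genes. The code of the fit was checked on simulated data with independent noise. Recovery was required there only for changes larger than that of any member. RMA can pull large ratios toward 1, and the table has no detection call. The number of arrays limits the precision, and the labels name no separate cultures or donors. Xist and Y-linked values set replicate 3 of each genotype apart from replicates 1 and 2, so these hold RNA of different animals. Otherwise the spread of these samples, which is all the p-values reflect, may be technical. Members and lists were chosen with earlier results of these data known, so the members get no test as a list. Named genes were Sel1l, the 5 largest differences each way in each subunit, up to 5 members each way without overlap, those with 2 probe sets, 7 named for their roles, and the 2 with the smallest p in each related list. The mitochondrially encoded list, the structural groups and the members named beside these (Mrpl11, Mrpl27, Mrpl45 and Mrpl46) were added after values were seen. Promoter sequences are RefSeq's (GRCm38.p6).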

Additional observations from a re-analysis of the deposited data

How the results depend on the processing

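Of the 71 members 0 were called under each of the 13 alternatives, including the replicate block, where 36 of all genes were called, against 54 without it. The replicate numbers were not taken as pairs, since the labels do not say that equal numbers belong together. Each array's deviations from the mean of its own genotype were correlated across genes between the genotypes. For same-numbered arrays these correlations were 0.10, 0.07 and 0.21. Those of differently numbered arrays were all lower, from -0.13 to 0.04. The deviations cancel within a genotype, so the correlations are not independent of each other. Whether equal numbers mark pairs was not tested. The count over all genes was 133 with a trended, robust variance, 1 on the 4 arrays with high Xist, and 4 to 29 when 1 array was left out. The large minus small median difference, -0.0159, was 0.013 on the 4 arrays with high Xist and -0.0298 to 0.0316 with 1 array left out, so its sign was not stable. The count of lower members, 44, ran from 29 to 51. With the mean of the probe sets Mrpl10 differed by 0.21 and Mrps17 by 0.14. On the 4 arrays with high Xist Mrps17 differed by 0.061 and Mrps36 by -0.20. With 1 array left out the differences ran from -0.097 to 0.049 for Mrpl10, -0.24 to 0.0061 for Mrpl12, -0.055 to 0.15 for Mrpl36, -0.23 to 0.040 for Mrpl47, -0.040 to 0.40 for Mrps18c, -0.26 to 0.12 for Mrps30 and -0.12 to 0.13 for Mrps36. The other 21 of 29 named members kept their direction under every alternative. Most of these were named for the size of their difference, which makes a reversal less likely. The replicate block, an adjustment for low Xist and the trended variance leave every difference unchanged, so they could not reverse one. Members outside the 29 also reversed with 1 array left out, such as Mrpl22 (-0.14, up to 0.0026) and Mrpl51 (-0.12, up to 0.011). The causes were not tested.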
